A study of Mus musculus with 24 samples.

Results

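Tunicamycin-treated PERK-/- mouse fibroblasts were compared with tunicamycin-treated wild-type (WT) fibroblasts, 2 arrays against 2 arrays, which is 4 of the 24 arrays of the study. The comparison took every probe set of the deposited table other than the AFFX controls, 12422 of 12488, with no choice by measured value. Of these, 7387 probe sets were tested, those never at the lowest value of the table on the 12 arrays of the tunicamycin experiment. Counted once per gene, they stand for 5516 of the 8251 genes that have a probe set with 1 gene symbol. The study asked which transcripts depend on the integrated stress response, and for these arrays the question was which of them differ when PERK is missing from cells under endoplasmic reticulum (ER) stress.

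The WT cells had received 2 ug/ml tunicamycin for 6 h. The PERK-/- cells had received the same dose for a time that the labels do not give, so an unequal duration and the genotype cannot be told apart. Untreated cells of both genotypes, 2 arrays each, served as the background difference between them, and 2 arrays of treated ATF4-/- cells (2 ug/ml, 6 h) are set beside them for a few genes. The labels call the cells of each genotype a fibroblast cell line and give no littermate relation, passage or clone, and they do not say which part of the PERK gene is deleted. The loss of PERK and other differences between these cell lines therefore cannot be told apart. The remaining arrays, of cells that carry the drug-activated kinase Fv2E-PERK, were not used here other than in an alternative fit.

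Tunicamycin blocks the first step of N-linked glycosylation, so that unfolded glycoproteins build up in the ER lumen. Membrane proteins of the ER sense this state. PERK phosphorylates the translation factor eIF2alpha, which slows protein synthesis in general while favouring translation of the transcription factor ATF4. IRE1 splices the mRNA of XBP1, and ATF6 moves to the Golgi, where it is cut to release a transcription factor. ATF4 acts on genes of amino acid supply and on further transcription factors such as CHOP, while XBP1 and ATF6 act mainly on ER chaperones and on the machinery that removes misfolded proteins.

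The deposited values divide every probe set by its median across all 24 arrays, so these ratios can be compared between arrays for 1 gene but not between genes. The table goes no lower than 0.01, a value termed the floor, which 22.6% to 25.6% of the entries of each array in the tunicamycin experiment held. Within each group, array 1 and array 2 had a correlation of 0.711 to 0.786 across the tested probe sets. Differences are given as PERK-/- minus WT on the scale log2(ratio + 0.247), with the standard error (SE), and folds are ratios of the group means of the deposited ratios. "Called" means an adjusted p under 0.05 in the two-sided limma test, adjusted by the Benjamini-Hochberg method for all 7387 tested probe sets. The 2 arrays of each group differed in 2 sex-linked transcripts, Xist and Eif2s3y. Xist, the RNA that silences an X chromosome in female cells, read 4.42 to 13.5 on array 1 and 0.01 to 0.251 on array 2 of the 6 groups, and Eif2s3y, a Y-linked gene, read 0.01 to 0.473 on array 1 and 1.53 to 3.48 on array 2. Array 1 was above array 2 for Xist in 6 of 6 groups and below it for Eif2s3y in 6 of 6. By Xist and Eif2s3y every group thus held 1 array of each kind. Other Y-linked genes did not show this split in every group. Sry was higher on array 1 in 3 groups and lower in 3. Kdm5d was lower on array 1 in 1 group and Uty in 2, and in the remaining groups each was at 0.01 on both arrays. The labels do not state the sex of the cells or whether replicate arrays stem from different cultures. What the p-values take as error is only how far these arrays lie apart, and for Xist and Eif2s3y that gap followed the array number in every group. How much of the remaining gap is technical was not tested.

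Under tunicamycin, 491 of 7387 probe sets differed between the cell lines (6.65%). Of these, 331 were lower in PERK-/- cells (4.48%) and 160 were higher (2.17%). Counted by gene, 377 of 5516 differed (6.83%), of which 258 were lower (4.68%) and 119 were higher (2.16%). The differences were often large: 84 of the lower probe sets and 37 of the higher ones passed 4-fold. Both arrays of one cell line lay outside both of the other for all 491, which held for 26.3% of all tested probe sets on the lower side and 23.9% on the higher side, and for 27.2% and 23.7% of tested genes. The count leaned on single arrays, falling to 124 without WT array 1, to 144 without WT array 2 and to 177 without PERK-/- array 2, while 438 were called without PERK-/- array 1. Fitted on the 4 compared arrays alone, the test called 0 probe sets, with 1292 at an unadjusted p under 0.05.

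Many of the same differences were already there without the drug. In untreated cells 121 probe sets were called (1.64%), 95 lower (1.29%) and 26 higher (0.352%) in PERK-/- cells. Of the 491 called in treated cells, 82 were also called the same way in untreated cells, which is 16.7% of the treated calls and 67.8% of the untreated calls, and 0 were called in opposite directions. The treated calls had the same sign in untreated cells for 452 probe sets, or 92.1%, against 66.5% over all tested probe sets. The treated calls were larger under the drug: the median difference of the lower calls was -1.06 in treated and -0.52 in untreated cells, and that of the higher calls was 1.07 and 0.47. The choice of members by the treated difference favours the larger treated value, so these medians are a description. A direct test of the treated against the untreated difference called 0 of 7387 probe sets (0%), with 562 (7.61%) at an unadjusted p under 0.05. With all 24 arrays in the fit that test called 34.

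**Figure D1:**
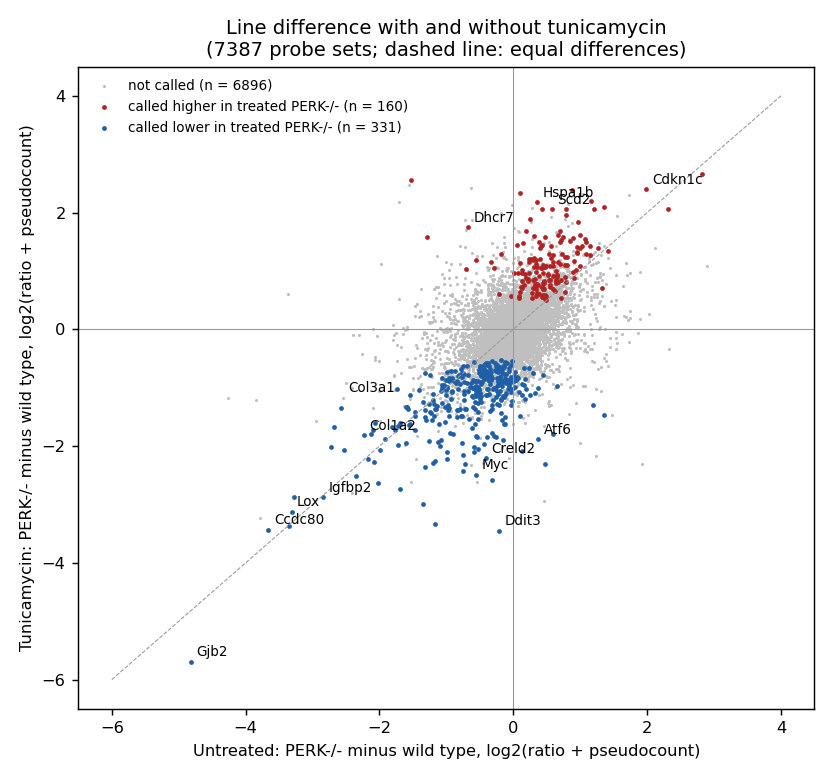
Each point is a probe set, with the untreated difference (PERK-/- minus WT, log2(ratio + 0.247)) on the x axis and the tunicamycin difference on the y axis. Blue points were called lower and red points higher in treated PERK-/- cells, the dashed line marks equal differences, and Ddit3 lies at -3.45 on the y axis and -0.21 on the x axis, while Ccdc80 and Igfbp2 lie close to the dashed line.

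The genes of the PERK arm itself were measured first. Eif2ak3, which encodes PERK, had ratios of 2.26 and 1.97 on the treated WT arrays and of 0.987 and 0.556 on the treated PERK-/- arrays. The groups did not overlap, but the difference of -1.25 (SE 0.73) had an adjusted p of 0.375. The untreated WT arrays read 1.91 and 0.0222, a wide gap within 1 group. Where the probes lie relative to the deleted part is not known here, so this probe set does not check the genotype. Atf4, whose protein is made preferentially when eIF2alpha is phosphorylated, had ratios of 1.64 and 1.62 in treated WT and of 1.03 and 0.783 in treated PERK-/- cells. It was lower by 1.80-fold (-0.71, SE 0.17, adjusted p = 0.0444), the smallest called difference on the list of PERK, ATF4 and CHOP pathway genes, and it lost the call without WT array 1 (adjusted p = 0.201), WT array 2 (0.170) or PERK-/- array 2 (0.183).

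Of the 19 tested genes of the PERK, ATF4 and CHOP pathway, 10 were lower in treated PERK-/- cells, 0 were higher, and 18 of 19 differences lay below 0. The median difference was -1.03, against -0.01 over all 5516 genes. Of these 5516, 4.68% were called lower and 2.16% higher, shares to set beside each list below. Without the drug, 1 of the 19 was lower and the median was -0.47. The count of 10 became 3 with either WT array left out, and 5 without PERK-/- array 2.

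The largest difference in this group was that of Ddit3, which encodes CHOP, a transcription factor of the later, pro-apoptotic part of the response. Its ratios were 9.0 and 8.92 on the treated WT arrays and 0.459 and 0.764 on the treated PERK-/- arrays. Both WT arrays were far above both PERK-/- arrays, and the PERK-/- arrays sat close to untreated cells, which read 0.705 and 0.323 (WT) and 0.362 and 0.422 (PERK-/-). The gene was 14.7-fold lower (-3.45, SE 0.26, adjusted p = 0.000804), and in untreated cells the difference was -0.21 (SE 0.26). The treated difference exceeded the untreated one by -3.24 (SE 0.37), with an adjusted p of 0.0663, which misses the threshold. Treated ATF4-/- cells, measured against the same WT arrays, read 2.85 and 3.05, between the other cell lines.

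Atf3, a stress-induced repressor, read 4.34 and 3.41 in treated WT and 1.2 and 0.967 in treated PERK-/- cells. It was 3.58-fold lower (-1.63, SE 0.23, adjusted p = 0.00591), with an untreated difference of -0.13. Cebpb, a transcription factor that pairs with ATF4 and CHOP, read 2.23 and 2.16 in treated WT against 0.730 and 0.528 (-1.49, SE 0.21, adjusted p = 0.0056). Trib3, a pseudokinase that feeds back on ATF4 and CHOP, read 3.05 and 3.0 against 0.777 and 1.01. For each of these genes the WT and PERK-/- arrays were apart under the drug. The calls of Ddit3, Atf3 and Cebpb held when any 1 of the 4 arrays was left out, while that of Trib3 (-1.53, SE 0.24, adjusted p = 0.00843) was lost without WT array 1 (adjusted p = 0.0572) or WT array 2 (0.0527). The other called genes of the list were Herpud1, Atf5, Stc2, Cebpg and Ero1a, with differences from -2.10 to -1.13. Ppp1r15a, which encodes GADD34, the phosphatase subunit that reverses eIF2alpha phosphorylation, was at the floor on 1 untreated array and was not tested. Its ratios were 5.49 and 5.35 in treated WT cells and 0.806 and 0.388 in treated PERK-/- cells, with no overlap.

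Further genes that are always named gave no call. Asns, asparagine synthetase, read 1.27 and 1.48 in treated WT against 1.07 and 0.731 in treated PERK-/- cells. These arrays did not overlap, but the difference was not called (-0.51, SE 0.20, adjusted p = 0.170). The untreated difference was about the same, at -0.57 (SE 0.20, adjusted p = 0.207), also without overlap. Treated ATF4-/- cells read 0.219 and 0.158 for the same gene. Vegfa, an angiogenic growth factor, was also not called (-1.03, SE 0.30, adjusted p = 0.0749), and its untreated difference was -1.50 (SE 0.30, adjusted p = 0.045).

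**Figure D2:**
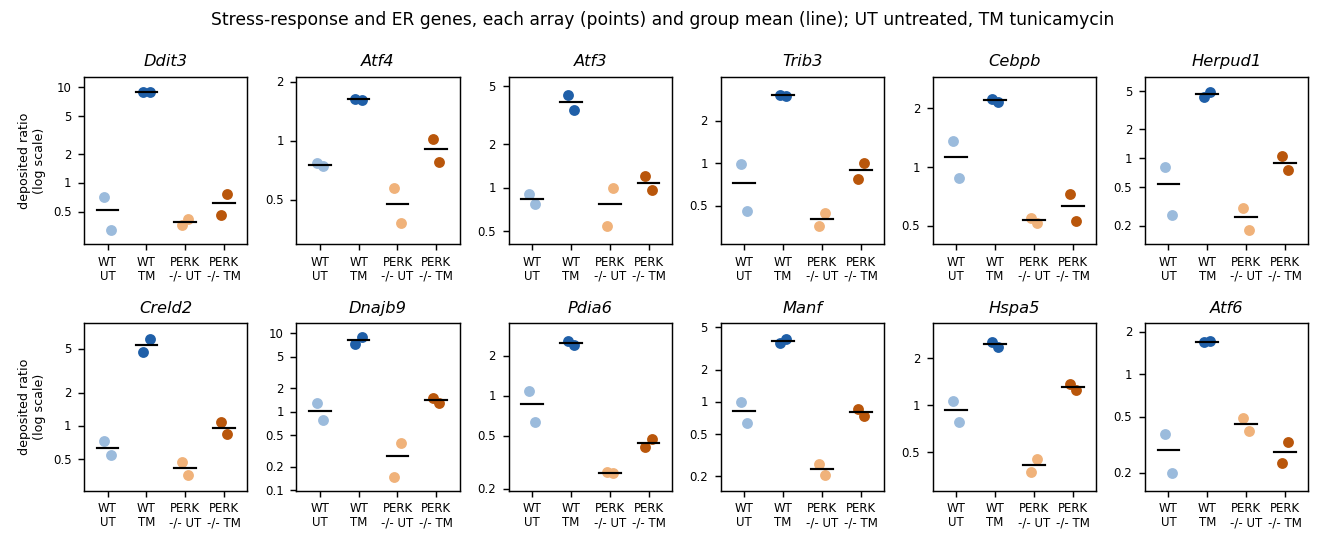
Deposited ratios (log scale) of 12 stress genes on each array, with untreated (UT) and tunicamycin-treated (TM) WT and PERK-/- cells side by side, 1 point per array and a line at the group mean. For Ddit3 the treated WT points lie at 9.0 and 8.92, above all PERK-/- points, and for Hspa5 the cell lines are apart both with and without the drug.

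Of the lists of amino acid supply, that of synthesis had 6.67% of its tested genes called, near the 6.83% of all tested genes. Its median difference was -0.40 in treated and -0.28 in untreated cells, and 12 of 15 treated differences lay below 0. An unadjusted limma p under 0.05 was found for 6 of the 15 in treated cells, against 22.1% of all tested genes. The enzymes that charge tRNAs with amino acids gave 4 lower and 0 higher of 16 tested, with a median difference of -0.48 in treated and -0.14 in untreated cells. Wars, which charges tryptophan, was lower on all of its probe sets. One read 2.09 and 2.40 in treated WT against 0.270 and 0.165 in treated PERK-/- cells (-2.43, SE 0.24, adjusted p = 0.00122), and another 2.15 and 2.76 against 1.09 and 0.788 (-1.19, SE 0.19, adjusted p = 0.00843). The last gave -1.78, so the probe sets gave the same direction and unequal sizes. Lars, Eprs and Gars, for leucine, for glutamate with proline, and for glycine, were lower by 0.81 to 0.87 on the log2 scale. Without WT array 2 0 of the 4 genes were called, counting Wars by the probe set at -1.19, and 1 was called without WT array 1 or without PERK-/- array 2. Of 7 tested amino acid transporters, Slc6a9, a glycine carrier (-1.25, SE 0.25, adjusted p = 0.0211), and Slc7a5, the light chain of a carrier of large neutral amino acids (-1.15, SE 0.27, adjusted p = 0.041), were lower. Slc38a4, a carrier of neutral amino acids, went the other way, from 0.506 and 0.539 in treated WT to 1.32 and 1.71 in treated PERK-/- cells (1.18, SE 0.15, adjusted p = 0.00366). The count of 3 transporters became 1 with either WT array left out. In amino acid synthesis, 1 of 15 tested genes was called, Bcat2, the mitochondrial branched-chain aminotransferase, lower at -1.05 (SE 0.18, adjusted p = 0.0129), and 0 were called without WT array 1 or WT array 2.

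ER chaperones and folding enzymes, which are mainly counted as targets of ATF6 and XBP1, were lower as well. Of 26 tested, 16 were lower in treated PERK-/- cells, 0 were higher, and 22 differences lay below 0, with a median of -0.77. In untreated cells 6 of the 26 were lower, with a median of -0.54. The count of 16 became 7 without WT array 1, 6 without WT array 2, and 9 with either PERK-/- array left out.

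Promoter letters are shown for the ER stress response element (ERSE), to which ATF6 binds together with NF-Y, and for its variant ERSE-II. Several of the lower genes share them. The stretches are a selection in which Canx is the only holder that was not called. Counts over all tested holders are given after them. RefSeq promoter windows of GRCm38.p6, from 250 bases before to 50 bases after the start, were found for 4442 of the 5516 tested genes (80.5%). Both strands were searched for ERSE, the boxes CCAAT and CCACG with any 9 bases between them, which 0.119% of all 32851 windows hold, and for ERSE-II, ATTGG and CCACG with any 1 base between them, which 0.0365% hold. The stretches below run 5′ to 3′ along the gene with the motif in capitals (on the opposite strand where the capitals begin with CGTGG), and 12 bases on each side.
Hspa5 (chr2:34772013-34772055, plus strand): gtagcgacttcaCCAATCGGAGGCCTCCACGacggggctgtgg
Pdia6 (chr12:17266479-17266521, plus strand): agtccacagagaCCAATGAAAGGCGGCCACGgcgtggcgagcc
Dnajc3 (chr14:118937815-118937857, plus strand): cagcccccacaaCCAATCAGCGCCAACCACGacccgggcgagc
Creld2 (chr15:88819508-88819550, plus strand): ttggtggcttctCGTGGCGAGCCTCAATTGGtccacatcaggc
Ero1b (chr13:12565670-12565712, plus strand): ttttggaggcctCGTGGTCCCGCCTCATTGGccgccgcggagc
Hsp90b1 (chr10:86705626-86705668, minus strand): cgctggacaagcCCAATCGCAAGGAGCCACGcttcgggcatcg
Canx (chr11:50325788-50325830, minus strand): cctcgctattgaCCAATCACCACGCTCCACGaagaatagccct
Herpud1, ERSE-II (chr8:94386365-94386399, plus strand): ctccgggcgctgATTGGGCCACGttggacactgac
Nucb1, ERSE-II (chr7:45510427-45510461, minus strand): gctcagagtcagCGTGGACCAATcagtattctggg

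Of the 10 tested genes whose window holds the ERSE letters, 6 were called lower (Hspa5, Hsp90b1, Pdia6, Dnajc3, Creld2 and Ero1b), 0 were called higher and 4 were not called. The chaperone Canx was among the latter, with ratios of 2.29 and 2.47 in treated WT against 1.85 and 2.92 in treated PERK-/- cells, which overlap. Over the 10 genes, 7 differences lay below 0. Of the 7 tested genes with ERSE-II letters, 5 were called lower (Herpud1, Nucb1, Dnajb11, Lgalsl and Rcl1), 0 higher and 2 were not called. Among the 211 called-lower genes with a window, 2.84% held ERSE letters and 2.37% held ERSE-II letters, against 0.225% and 0.158% of all tested genes with a window. The letters TGATGNAA, a form of the site to which ATF4 binds with C/EBP proteins, were held by 3.97% of all windows, and of the 114 tested genes that hold them 9 were lower, 3 higher and 102 not called. Among genes with a window, they were held by 4.27% of the called-lower, 3.19% of the called-higher and 2.57% of all tested ones. Of the 17 pathway genes with a window, 5 held them (29.4%). A match of letters is a description of the window and not a binding site.

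Hspa5, which encodes BiP, the main Hsp70 chaperone of the ER lumen, read 2.54 and 2.38 in treated WT against 1.37 and 1.26 in treated PERK-/- cells. The arrays did not overlap, and the gene was 1.88-fold lower (-0.80, SE 0.18, adjusted p = 0.0307). The untreated difference was of the same size, -0.83 (SE 0.18, adjusted p = 0.0558), with 1.07 and 0.788 in WT against 0.375 and 0.450. The treated call of Hspa5 was lost when any 1 of the 4 arrays was left out, with adjusted p from 0.0626 to 0.150. Hsp90b1, the ER member of the Hsp90 family, behaved similarly in size, at -0.72 (SE 0.17, adjusted p = 0.0353) in treated and -0.87 (SE 0.17, adjusted p = 0.0374) in untreated cells.

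The chaperone genes with the smallest p-values were other ones. Creld2, a secreted folding factor, read 4.63 and 6.12 in treated WT against 1.09 and 0.841 in treated PERK-/- cells (-2.21, SE 0.20, adjusted p = 0.00113), and its untreated difference was -0.41. Pdia6, a disulfide isomerase, read 2.60 and 2.40 against 0.413 and 0.472 (-1.99, SE 0.20, adjusted p = 0.00122), with -1.09 in untreated cells. Pdia4, of the same family, read 3.14 and 3.10 against 0.620 and 0.855 (-1.79, SE 0.16, adjusted p = 0.00113). In all of these the WT arrays stood above the PERK-/- arrays without overlap. Manf, a small ER-resident protein that is secreted under stress, read 3.57 and 3.91 against 0.850 and 0.744 (-1.93, SE 0.21, adjusted p = 0.00199). Dnajc3, a BiP co-chaperone also called p58IPK, read 3.07 and 5.14 against 0.645 and 1.06 (-1.97, SE 0.26, adjusted p = 0.00458). These 5 calls held when any 1 of the 4 arrays was left out. Dnajb9, the BiP co-chaperone ERdj4, had the largest difference of the group, from 7.39 and 9.05 to 1.52 and 1.30 (-2.35, SE 0.38, adjusted p = 0.0103), with a further probe set at -2.26. Without WT array 2 the adjusted p of Dnajb9 was 0.0656, and without PERK-/- array 2 it was 0.0615. Treated ATF4-/- cells, against the same WT arrays, read 3.97 and 4.21 for Creld2, 2.27 and 2.22 for Pdia6 and 2.79 and 2.84 for Manf.

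Atf6, the transcript of another ER stress sensor, and Xbp1, on whose mRNA IRE1 acts, were lower. Atf6 read 1.69 and 1.71 in treated WT against 0.234 and 0.333 in treated PERK-/- cells, 6.01-fold lower (-1.89, SE 0.23, adjusted p = 0.00366). In untreated cells the order was turned: WT read 0.378 and 0.20 and PERK-/- 0.487 and 0.394, a difference of 0.38 (SE 0.23) that was not called. Xbp1 read 1.24 and 1.43 in treated WT against 0.417 and 0.415 (-1.25, SE 0.16, adjusted p = 0.00379). Its untreated difference was nearly equal, with 0.856 and 0.631 against 0.130 and 0.153 (-1.34, SE 0.16, adjusted p = 0.00554). Both calls held when any 1 array was left out. Ern1, which encodes IRE1, was not analysed here. Of the 11 tested genes on the list of eIF2alpha kinases, their cofactors and ER sensors, these and Dnajc3 were the 3 called, all lower, and 4 of the 11 differences lay above 0.

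In ER-associated degradation and ER-to-Golgi transport, 7 of 35 tested genes were lower and 0 were higher. Sel1l, the scaffold of the Hrd1 ubiquitin ligase, was lower with both of its probe sets. One read 3.98 and 5.47 in treated WT against 0.761 and 0.722 in treated PERK-/- cells (-2.31, SE 0.30, adjusted p = 0.00428), and its call held with any 1 array left out. The other read 3.15 and 9.13 against 0.394 and 0.247 (-3.33, SE 0.60, adjusted p = 0.0153), with adjusted p of 0.0868 without WT array 2 and 0.0800 without PERK-/- array 2. Herpud1, a membrane protein of the same pathway, read 4.35 and 4.92 against 1.05 and 0.754 (-2.10, SE 0.33, adjusted p = 0.00882), and its adjusted p was 0.050 without WT array 1, 0.0608 without WT array 2 and 0.0574 without PERK-/- array 2. The vesicle coat genes Copb1 and Sec23a were lower by 0.88 and 1.37 on the log2 scale, and they were similarly low in untreated cells, at -0.89 and -1.57. The count of 7 became 1 with either WT array left out and 3 without PERK-/- array 2. In the translocon and glycosylation group, 3 of 30 tested genes were lower, Rpn1, Sec11a and Srp68, with differences from -1.06 to -0.52, and 0 were called without WT array 1, WT array 2 or PERK-/- array 2.

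Sterol and fatty acid synthesis was the list with the largest share of genes higher in treated PERK-/- cells among the lists with 10 or more tested genes. Of 19 tested, 8 were higher, 0 were lower, and 1 difference lay below 0, with a median of 0.88. In untreated cells 0 of 19 were called, and the median was 0.25. The 8 were Idi1, Scd2, Dhcr7, Sc5d, Hmgcs1, Scd1, Fads1 and Fdps. The count became 4 without WT array 1, 5 without WT array 2 and 4 without PERK-/- array 2.

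Idi1, the isomerase of isopentenyl diphosphate early in the sterol pathway, read 0.0710 and 0.0452 in treated WT against 0.797 and 1.32 in treated PERK-/- cells. The gap was 18.2-fold (2.07, SE 0.30, adjusted p = 0.00634), while untreated cells overlapped, with 0.618 and 0.352 in WT against 0.548 and 0.937. Scd2, a stearoyl-CoA desaturase, read 0.270 and 0.349 against 1.76 and 2.41 (2.06, SE 0.22, adjusted p = 0.00199), and a further Scd2 probe set gave 1.21. Scd1, its paralog, read 0.484 and 0.528 against 1.21 and 1.46 (1.07, SE 0.15, adjusted p = 0.0056), with 1.69 and 0.22 on its other probe sets. For each of these the treated WT arrays were the low ones. Dhcr7, the last enzyme of cholesterol synthesis, read 0.340 and 0.139 in treated WT against 1.40 and 1.30 in treated PERK-/- cells (1.75, SE 0.25, adjusted p = 0.00676). Untreated WT cells were the higher ones for Dhcr7, at 1.46 and 0.951 against 0.729 and 0.578. These 4 calls held when any 1 of the 4 arrays was left out. Treated ATF4-/- cells, against the same WT arrays, read 0.141 and 0.129 for Idi1, 0.424 and 0.452 for Scd2 and 0.475 and 0.766 for Dhcr7, below both treated PERK-/- arrays for each gene.

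Heat shock genes differed in both directions. Of 21 tested, 4 were higher (Hspa1b, Hspa1a, Hspa8 and Hspa4l) and 2 were lower (Hspa9, the mitochondrial Hsp70, and Hspa4, a nucleotide exchange factor). Hspa1b, the inducible cytosolic Hsp70, read 0.528 and 0.580 in treated WT against 4.53 and 2.51 in treated PERK-/- cells, with no overlap (2.18, SE 0.29, adjusted p = 0.00512). In untreated cells it read 0.975 and 1.02 against 1.61 and 1.13 (0.36, SE 0.29). Its near-identical copy Hspa1a, whose signal the probes may not separate, gave 1.89 (SE 0.37, adjusted p = 0.0205). Hspa8, the constitutive form, read 0.410 and 0.461 against 1.33 and 0.806 (0.92, SE 0.19, adjusted p = 0.025). The call of Hspa1b held with any 1 array left out, but the list's count of 6 became 1 with either WT array left out and 3 with either PERK-/- array left out.

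**Figure D3:**
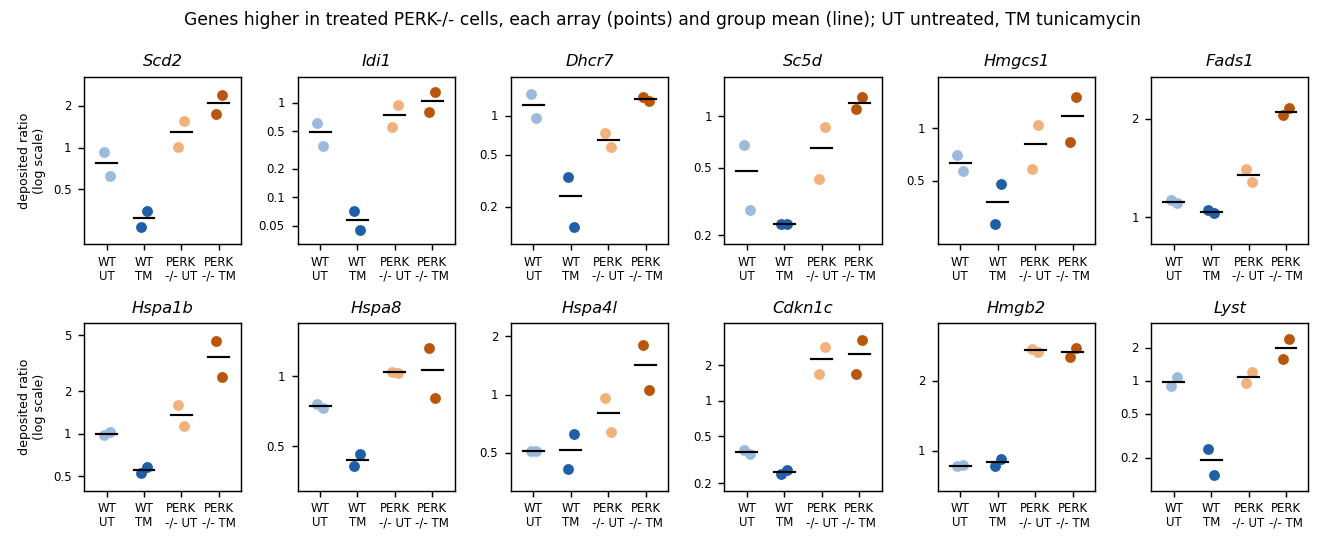
Deposited ratios (log scale) of 12 genes called higher in treated PERK-/- cells, 1 point per array and a line at the group mean, with untreated (UT) and treated (TM) cells of each genotype. The treated WT points are the lowest for Scd2, at 0.270 and 0.349, and for Idi1, at 0.0710 and 0.0452, while Cdkn1c and Hmgb2 are high in PERK-/- cells with and without the drug.

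Genes of growth control and the cell cycle were higher in a few cases. Cdkn1c, which encodes the cyclin-dependent kinase inhibitor p57, read 0.238 and 0.257 in treated WT against 1.67 and 3.28 in treated PERK-/- cells (2.40, SE 0.29, adjusted p = 0.00366). It was about as high in untreated PERK-/- cells, at 1.68 and 2.84 against 0.381 and 0.355 (1.99, SE 0.29, adjusted p = 0.0151). Among 35 tested cell cycle genes, 3 were higher (Hmgb2, Gmnn and Fen1), 0 were lower, and 5 differences lay below 0, with a median of 0.43 in treated and 0.33 in untreated cells. Hmgb2, a chromatin protein of dividing cells, read 0.862 and 0.924 against 2.53 and 2.77 (1.35, SE 0.21, adjusted p = 0.00801), with an untreated difference of 1.41 (SE 0.21, adjusted p = 0.0151). The count of 3 became 0 without WT array 1, where Hmgb2 had an adjusted p of 0.0621, 1 without WT array 2 and 2 without PERK-/- array 2.

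Other genes with large higher differences had mixed roles. Lyst, the lysosomal trafficking gene mutated in beige mice, read 0.242 and 0.139 in treated WT against 1.57 and 2.40 in treated PERK-/- cells (2.34, SE 0.23, adjusted p = 0.00122). In untreated cells it was level, at 0.887 and 1.07 against 0.960 and 1.19. Acsm3, a medium-chain acyl-CoA synthetase of mitochondria, read 0.390 and 0.221 against 2.45 and 2.79 (2.39, SE 0.38, adjusted p = 0.00882), with an adjusted p of 0.0689 without WT array 2 and 0.0547 without PERK-/- array 2. The Lyst call held with any 1 array left out. The probe set of Ywhaq with the largest higher difference read 1.18 and 0.628 against 7.53 and 6.14 (2.66, SE 0.60, adjusted p = 0.033). Its other tested probe sets gave 0.17 and -0.09, so the probe sets of this 14-3-3 gene disagree. Pip4k2c, a phosphoinositide kinase, showed the same, with 2.06 on one probe set and -0.03 on another. Wdtc1, Mbd4, Ccl2 and Sh3gl2 completed the 12 largest, between 2.05 and 2.21. Of the 12, the calls of Cdkn1c, Lyst, Hspa1b, Idi1 and Scd2 held with any 1 array left out, while in the other 7 the highest such adjusted p ran from 0.0689 for Acsm3 to 0.251 for Sh3gl2.

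Extracellular matrix and contractile genes were also among the lower genes, and their gap was measured without the drug as well. Of 15 tested collagens, 5 were lower in treated and 6 in untreated PERK-/- cells, 0 were higher in either, and the median difference was -0.57 in treated and -1.06 in untreated cells. Col1a2, a chain of type I collagen, read 1.19 and 1.82 in treated WT against 0.166 and 0.338 in treated PERK-/- cells (-1.81, SE 0.23, adjusted p = 0.00416). Untreated cells read 1.56 and 1.78 against 0.106 and 0.223 (-2.23, SE 0.23, adjusted p = 0.00446), and a further Col1a2 probe set gave 0.02 under the drug. Col1a1, its partner chain, read 1.23 and 1.42 against 0.574 and 0.461 in treated cells (-1.04, SE 0.15, adjusted p = 0.00634). The PERK-/- arrays were the low ones for both genes in both states. Col3a1, of type III collagen, was called in untreated cells, with 10.6 and 10.4 against 0.312 and 0.765 on one probe set (-3.84, SE 0.42, adjusted p = 0.005). Under the drug that probe set read 1.75 and 4.06 against 0.874 and 1.19 (-1.21, SE 0.42, adjusted p = 0.131), and of the other Col3a1 probe sets one was called (-1.67, adjusted p = 0.0183) and one was not (-1.17, adjusted p = 0.0684). The count of 5 collagens became 3 without WT array 1, 2 without WT array 2 and 3 without PERK-/- array 1.

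Lox, which cross-links collagen and elastin, read 1.78 and 3.49 in treated WT against 0.0614 and 0.0772 in treated PERK-/- cells (-3.12, SE 0.35, adjusted p = 0.00272), a 38-fold gap. It was as large in untreated cells (-3.31, SE 0.35, adjusted p = 0.00446), and a further Lox probe set gave -3.37. Among 23 tested matrix glycoproteins and modifiers, Lox, Postn, Fbln2 and Bgn were lower and Mfap5 was higher. Fbln2, a basement membrane fibulin, read 1.02 and 1.34 against 0.0907 and 0.154 (-1.95, SE 0.24, adjusted p = 0.00351). Bgn, the proteoglycan biglycan, read 1.19 and 1.38 against 0.422 and 0.342 (-1.29, SE 0.16, adjusted p = 0.00379). Both were low in untreated PERK-/- cells as well, at -1.60 and -1.19. Mfap5, a microfibril protein, read 0.893 and 1.11 against 2.81 and 1.93 (1.05, SE 0.24, adjusted p = 0.0359), and its call was lost when any 1 of the 4 arrays was left out (adjusted p from 0.0547 to 0.201). The count of 5 in this list became 3 without PERK-/- array 2. Serpinf1, a secreted inhibitor of blood vessel growth, read 2.94 and 3.22 against 0.855 and 0.909 (-1.56, SE 0.15, adjusted p = 0.00122), while a further probe set of it gave 0.93 and was not called. With Timp1 and Timp3, inhibitors of matrix metalloproteases, it made 3 lower of 15 tested proteases and inhibitors, a count that became 1 without WT array 1, WT array 2 or PERK-/- array 2.

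Contractile genes were low in PERK-/- cells as well. Of 11 tested smooth muscle genes, Acta2, Tagln, Myl9 and Csrp1 were lower in treated PERK-/- cells and 0 were higher. Acta2, smooth muscle actin, read 1.34 and 1.26 against 0.266 and 0.176 (-1.73, SE 0.16, adjusted p = 0.00113), and -1.76 (SE 0.16, adjusted p = 0.00404) in untreated cells. Tagln, an actin-binding protein of smooth muscle, read 1.18 and 1.10 against 0.246 and 0.297 (-1.42, SE 0.14, adjusted p = 0.00122), with -1.46 untreated. The calls of Acta2 and Tagln held with any 1 array left out, and the count of 4 became 2 without WT array 1, WT array 2 or PERK-/- array 2. The ratios of the 11 genes summed to 16.1 and 18.3 on the treated WT arrays and to 11.7 and 10.5 on the treated PERK-/- arrays, and 1 further gene of this list, Smtn, was at the floor on all 4.

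**Figure D4:**
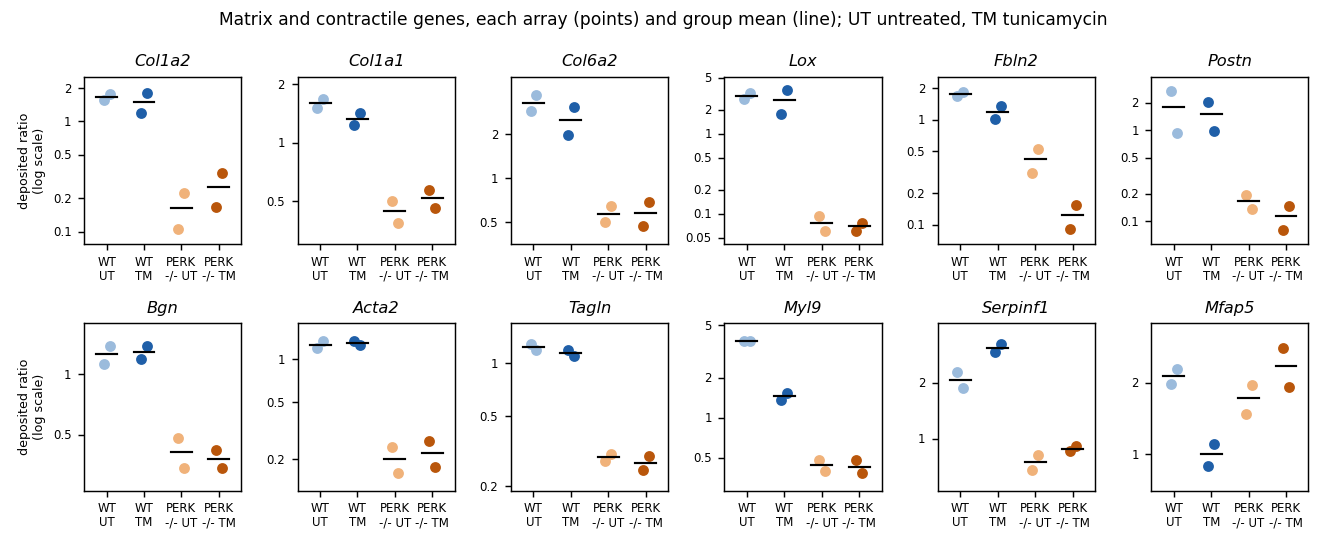
Deposited ratios (log scale) of 12 matrix and contractile genes on each array, 1 point per array and a line at the group mean, for untreated (UT) and treated (TM) cells of each genotype. For Acta2 and Tagln the PERK-/- points lie below the WT points in both states, and for Mfap5 the treated WT points, at 0.893 and 1.11, are the lowest.

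Fibroblast markers were above the floor on all 4 treated arrays for 16 of 18 genes, and Thy1 and Fap were at the floor on some of them. Of the 15 tested, 3 were lower (Fbln2, Col1a2 and Col1a1, which the matrix lists also hold) and 0 were higher in treated PERK-/- cells, and 6 were lower in untreated ones. Their summed ratio was 19.9 and 24.7 on the treated WT arrays and 16.6 and 18.7 on the treated PERK-/- arrays. Such a sum gives most weight to genes with high ratios, such as Fn1, fibronectin, at 4.24 and 4.46 in treated WT against 1.15 and 2.31, while S100a4, Pdgfra and Cd34 had differences above 0. Of the epithelial markers, Krt5, Krt7, Krt14, Krt19 and Cldn7 were at the floor on all 4 arrays. Of the tested epithelial (5), endothelial (3), leukocyte (5), skeletal muscle (6), neural (11) and adipocyte or cartilage (6) markers, 0 were called by limma in the treated comparison, and 1 epithelial, 1 leukocyte and 2 neural markers had an unadjusted p under 0.05, which 22.1% of all tested genes had. In bulk RNA, fewer cells of a kind and less RNA per cell cannot be told apart. The part of cell composition in the matrix and contractile differences was not tested.

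The largest lower differences outside these lists were spread over several roles. Gjb2, the gap junction protein connexin 26, read 78.7 and 67.4 in treated WT against 0.963 and 1.39 in treated PERK-/- cells, and 68.8 and 64.6 against 1.09 and 3.99 in untreated ones. The treated gap was 62.0-fold (-5.70, SE 1.44), with an adjusted p of 0.0492 that rose to between 0.0842 and 0.117 when any 1 of the 4 arrays was left out. Ccdc80, a secreted matrix protein, read 10.1 and 16.8 against 0.948 and 1.03 in treated cells (-3.43, SE 0.51, adjusted p = 0.00756) and differed by -3.66 in untreated ones. Igfbp2, which binds insulin-like growth factors, read 12.2 and 11.6 against 0.960 and 2.01 (-2.88, SE 0.33, adjusted p = 0.00272), with -2.85 untreated. For these genes the PERK-/- arrays were low with and without the drug. Anxa8, an annexin, differed by -2.88 (SE 0.43, adjusted p = 0.00755) in treated and -3.28 in untreated cells, with an adjusted p of 0.0513 without WT array 2. Erdr1 differed by -2.63 (SE 0.56, adjusted p = 0.0268) and lost its call with any 1 array left out (adjusted p from 0.0672 to 0.150).

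Genes of inflammation and of the immediate early response held further large lower differences. Ptx3, a secreted pattern recognition protein, read 7.28 and 8.44 in treated WT against 0.878 and 0.669 in treated PERK-/- cells (-2.99, SE 0.25, adjusted p = 0.000855), and the untreated difference was -1.35 (SE 0.25, adjusted p = 0.0345). Myc, the growth-promoting transcription factor, read 3.03 and 2.12 against 0.391 and 0.139 (-2.49, SE 0.29, adjusted p = 0.00272), with -0.55 untreated. Klf7, a zinc finger factor, read 2.19 and 1.61 against 0.106 and 0.114 (-2.58, SE 0.44, adjusted p = 0.0119), with -0.32 untreated, and its adjusted p was 0.0815 without WT array 1 and 0.0596 without PERK-/- array 2. In each the treated WT arrays were the high ones. Treated ATF4-/- cells, against the same WT arrays, read 2.57 and 1.75 for Myc and 0.437 and 0.535 for Ptx3. Of 20 tested immediate early genes, 5 were lower (Myc, Atf3, Egr1, Klf6 and Ier2) and 0 were higher, and in untreated cells 0 of 20 were called. The count became 2 without WT array 1, and 3 without WT array 2 or PERK-/- array 2. Of 18 tested chemokine and inflammatory genes, Ptx3, Ptgs2 and Csf1 were lower and Ccl2, a monocyte chemokine, was higher at 2.05 (SE 0.52, adjusted p = 0.0489), with an adjusted p of 0.223 without PERK-/- array 2. The count of 4 in that list became 2 without WT array 1 or PERK-/- array 2. Plk2, a p53-responsive kinase, was lower at -1.23 (SE 0.17, adjusted p = 0.00512), with -0.02 in untreated cells, while Sesn1, another p53 target, was higher at 0.96, with adjusted p of 0.0902 without WT array 1, 0.114 without WT array 2 and 0.0937 without PERK-/- array 2. With Cdkn1c they were the 3 called of 21 tested G1 and p53 genes.

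Several lists had few calls. The shares called in the antioxidant (8%) and glycolytic (7.14%) lists were near the 6.83% of all tested genes. Of 17 tested interferon-responsive genes, Tapbp and Ly6e were higher, and 0 were called with either WT array left out. Of 25 antioxidant genes under NRF2, Gstm5 was higher and Txnrd1 lower, and 0 were called without WT array 1 or PERK-/- array 2. Of 14 glycolytic genes Pfkl was higher (0.68, SE 0.16, adjusted p = 0.0365), and 0 were called with any 1 array left out. Of 24 tested Hox and other positional genes, which mark the body site a fibroblast comes from, 0 were called by limma in either state, with 4 in treated and 5 in untreated cells at an unadjusted p under 0.05, against 22.1% and 16.2% of all tested genes. Their medians were -0.02 in treated and -0.04 in untreated cells, and 1 was called in treated cells without PERK-/- array 1.

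**Figure D5:**
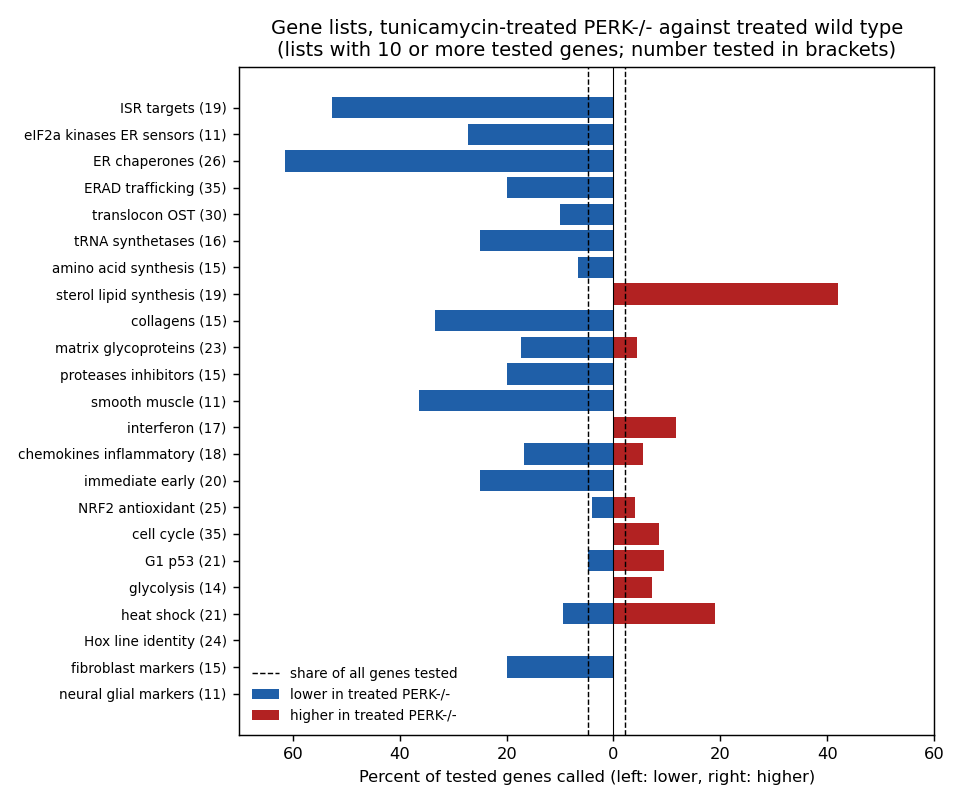
Percent of the tested genes of each list that were called lower (bars to the left, blue) or higher (bars to the right, red) in treated PERK-/- cells, for lists with 10 or more tested genes, with the number tested in brackets. Dashed lines mark the share over all 5516 genes, 4.68% lower and 2.16% higher. ER chaperones (16 of 26) and PERK, ATF4 and CHOP pathway genes (10 of 19) reach farthest to the left, and sterol and lipid synthesis (8 of 19) farthest to the right.

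Probe sets at the floor could not be tested, and some held clear contrasts. In the treated comparison 154 of 12422 probe sets (1.24%) were at the floor on both PERK-/- arrays and on neither WT array, 15 of them in untreated cells too. The reverse held for 165 (1.33%), 29 of them in untreated cells too. Among the untreated arrays the same patterns were about as frequent, at 134 (1.08%) and 176 (1.42%) probe sets. Tgfbi, a TGF-beta-induced matrix protein, was listed at 17.0 and 18.4 in treated WT and at 0.01 on both treated PERK-/- arrays, but untreated PERK-/- cells read 2.39 and 7.82. A further Tgfbi probe set, above the floor throughout, read 1.42 and 3.76 against 0.989 and 1.02 under the drug and was not called (-1.05, SE 0.54, adjusted p = 0.301). Car6, a secreted carbonic anhydrase, was listed at 38.7 and 90.0 in treated WT and at 0.01 on both treated PERK-/- arrays. It read 0.01 and 0.219 in untreated WT cells and 0.01 on both untreated PERK-/- and both treated ATF4-/- arrays. In the other direction, Crabp1, a retinoic acid binding protein, was at 0.01 on both treated WT arrays and at 55.0 and 90.0 in treated PERK-/- cells. Untreated cells read 0.851 and 3.54 (WT) and 48.9 and 105.2 (PERK-/-). Mdk, the growth factor midkine, was at 0.01 in WT cells of both states and between 20.1 and 104.3 in PERK-/- cells of both states. A floor value can be a failed estimate, so no fold is given for these genes.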

How the data were processed

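RNA from mouse fibroblasts was measured on Affymetrix arrays. The values deposited by the authors are linear ratios: the median over the 24 arrays was within 0.01 of 1 for 91.5% of probe sets, and the lowest value is 0.01. The sources used here do not give the authors' steps before this, or how floor values arose. No read depth applies, and 2 arrays per group limit the precision.

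Ratios were taken as log2(ratio + 0.247), the pseudocount being the table's median divided by 4, and fitted with limma 3.58.1 (R 4.3.3, lmFit and eBayes with a trend) on the 12 arrays of the tunicamycin experiment as 6 group means with 6 residual degrees of freedom. Each gene is represented by 1 probe set in counts by gene. Of the 12422 probe sets, 10833 have 1 gene symbol, 396 several and 1193 none, from the platform annotation. The self-test on simulated data was run before the fit. Alternatives changed the pseudocount, floor filter, arrays fitted, scaling, variance prior, replicate block and the arrays left in.

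Named genes are the 12 largest called differences in each direction with no overlap of arrays, 17 stress genes that are always named, and up to 4 members of each list with the smallest p, plus up to 6 floor genes per direction. Other called list members, further probe sets, genes with a promoter motif and the genes in the plots were named after their values were seen. The members and lists were chosen with earlier results of these data known.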

Additional observations from a re-analysis of the deposited data

Results flagged for a closer look

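For 4 tested probe sets of the genes named by rule, the cell lines lay apart in opposite directions on treated and untreated arrays. This held for 245 of all 7387 (3.32%), and the share among the tested named probe sets was no larger. Atf6 differed by -1.89 (SE 0.23) under tunicamycin and by 0.38 in untreated cells, and the difference between them was -2.26 (SE 0.33, adjusted p = 0.0805 in limma). Dhcr7 differed by 1.75 (SE 0.25) with the drug and by -0.67 without it, with 2.42 (SE 0.36, adjusted p = 0.0841) between them. Mfap5 differed by 1.05 (SE 0.24) in treated cells and by -0.28 in untreated cells, where WT read 1.99 and 2.28 and PERK-/- 1.48 and 1.96, with 1.34 (SE 0.34, adjusted p = 0.360) between them. Hoxa4, a positional homeobox gene, read 3.06 and 2.99 in treated WT against 1.07 and 1.16 in treated PERK-/- cells, and 0.912 and 1.25 against 2.70 and 1.91 in untreated ones. Its treated difference was -1.26 (SE 0.34, adjusted p = 0.0621) and its untreated one 0.94, with -2.20 (SE 0.48, adjusted p = 0.250) between them. For none of these 4 genes did the test of the difference pass after adjustment over the 7387 probe sets.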

How the results depend on the processing

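The 491 treated calls became 261 with no floor filter, 880 with all 24 arrays in the fit (475 of them among the 491) and 0 with the 4 compared arrays alone, and 124 to 438 with 1 array left out. The 121 untreated calls became 369 with all 24 arrays and 2 with the compared arrays alone, and 38 to 59 with 1 array left out. The test between the treated and untreated differences called 0, against 1 with the pseudocount equal to the median, 11 with no filter, 12 with the filter on 1 group, 34 with all 24 arrays and 0 to 3 with 1 array left out. The other alternatives gave 392 to 529 treated calls. The share of lower calls was 67.4%, against 62.5% with quantile normalization, 62.7% with arrays divided by their medians and 55.6% to 74.6% with 1 array left out, the lowest without WT array 2 and the highest without PERK-/- array 2. Of 88 calls on named genes, 0 changed direction under these alternatives, and the number kept was lowest with the compared arrays alone, at 0, and next with either WT array left out, at 40. With the replicate number as a block, 529 treated, 130 untreated and 0 difference calls were made, and of the named calls that of Rpn1 was lost. Same-numbered arrays of different groups had deviations that correlated with r between -0.194 and 0.207, and 0.00359 for treated WT with treated PERK-/-, so the arrays were not taken as paired, although array 1 had the higher Xist value in 6 of 6 groups. The cause of these changes was not tested.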

Other observations

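Further genes were at the floor on both treated arrays of 1 cell line and on neither treated array of the other. Coch, a secreted protein known from the inner ear, was listed at 37.0 and 140.1 in treated WT and 54.6 and 89.2 in untreated WT cells. It was at 0.01 on both treated PERK-/- arrays and at 1.41 and 0.01 on the untreated ones. Grem1, which binds and blocks bone morphogenetic proteins, was listed at 5.87 and 9.46 in treated WT and at 0.01 on both treated PERK-/- arrays, while untreated WT was at 0.01 on both arrays and untreated PERK-/- cells read 6.30 and 0.119. Igfbp6, which binds insulin-like growth factors, went the other way, at 0.01 on both treated WT arrays and at 9.18 and 18.3 in treated PERK-/- cells, and was above the floor on both untreated PERK-/- arrays. These probe sets were not in the main test.

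Of the 377 genes called in treated cells, 71 have another tested probe set. For 23 of them every other probe set was called in the same direction, for 14 at least 1 had the opposite sign, and for 0 was another called in the opposite direction.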
